A study of Homo sapiens with 4 samples.

Results

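The regions described here are the 442 m6A regions of H1 human embryonic stem cells whose centres HOMER, an annotation program, placed in a promoter or a 5' UTR (the untranslated stretch of an mRNA before its coding sequence). They were chosen by that label alone, 368 promoter regions and 74 5' UTR regions out of 9900. They made up 4.46% of the set, with a 95% exact binomial interval from 4.07 to 4.89%. m6A-seq was run on H1, an established line of pluripotent stem cells from a human embryo, of wild-type genotype and with no treatment but the assay. Total RNA gave 2 input libraries and 2 libraries pulled down with a Cell Signaling Technology antibody to m6A. The knockout and overexpressing lines that the series mentions were not analysed here. The deposited data were 1 intersected set of region positions on hg38, with no height and no value per library, so no number below has a replicate error, the depth was unknown, and intervals cover counting error only.

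N6-methyladenosine, m6A, is placed on RNA during transcription by the METTL3 and METTL14 complex, mostly in a short context whose commonest core is GGAC, and it is best known from long exons and the start of 3' UTRs. m6A in 5' UTRs is known for its part in translation under stress. Many m6A antibodies also bind m6Am, a dimethylated adenosine that can be the first transcribed base of a capped mRNA, so that signal at a start site can come from either mark. RNA is also made upstream of many promoters, on the opposite strand, as divergent transcripts that are mostly short-lived. The regions had no strand in the files, so the RNA behind a region cannot be told apart where 2 genes overlap.

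Start sites within 8 bp of the centre of a promoter region are shown first, as places where region and start coincide; those at RASSF8 (3 bp), TMEM80 (-4 bp) and EPB41L4A-DT (7 bp) are not printed. In each sequence the capital is the first transcribed base by annotation, with 10 bases before it. The sequences come from RefSeq (GRCh38.p14) and each site was 0 bp from the start that the deposited distance implies. Start sites were not measured in these cells.
TENM4 (chr11:79441011-79441040, minus strand): accgcctcccAttcatgtaacctgcgtgtg
ZEB1 (chr10:31318407-31318436, plus strand): ggtattactcAttccgctctactaaggagg
ARHGAP11A-SCG5 (chr15:32615466-32615495, plus strand): cgcgctgccaTttgagcctgggctgaaact
SMAD1 (chr4:145482324-145482353, plus strand): tgggtcttctGctgtgggaagcccagttcc
TMEM17 (chr2:62506176-62506205, minus strand): cgtgggaaccAcggagcctcggagcgcccg
The next 4 are among the starts nearest to the centre of a 5' UTR region, at 101 to 118 bp; ZSCAN29 (117 bp) and ANKRD18B (118 bp) are not printed.
ZNF701 (chr19:52570654-52570683, plus strand): gcgcctcccaGtctcaacctttaggcgcct
CALN1 (chr7:72337372-72337401, minus strand): gcgccgaggcGttcctcaggttgcgctgct
ZFP69B (chr1:40450466-40450495, plus strand): gaattgggttGtattcgtctctttgtgctt
AJUBA (chr14:22982532-22982561, minus strand): agagtggggcAgtcgggcgagtcgacgcgt
Of the 14 starts looked up for the regions closest to a start, 5 began with A, 6 with G, 2 with T and 1 with C.

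Other starts inside these regions had a GGAC among their first transcribed bases. GGAC is in capitals, and the sequences are again from RefSeq (GRCh38.p14) on the strand of the transcript. A match of these letters is a description and not a methylation site.
ZFP1 (chr16:75149054-75149083, plus strand): gtgggtggaggaaGGACtggagcctggtca
IDE (chr10:92573480-92573509, minus strand): ggcgacttcggggGGACcgcttctcacctt
EP300 (chr22:41092590-41092619, plus strand): atgagaaggaggaGGACagcgccgaggagg
TIPARP (chr3:156674605-156674634, plus strand): aggcgagctggctGGACtcggagcgcggtc
CUL1 (chr7:148698915-148698944, plus strand): cccggtagctgagGGACgcagctagacctt
STIM1 (chr11:3855692-3855721, plus strand): gcgtccgcctgctGGACctgggcaccgcca
CDV3 (chr3:133574442-133574471, plus strand): ctcgccagggccgGGACcccttccgatatc
LARP1 (chr5:154757156-154757185, plus strand): tcctctgcagccgGGACaacgtggtgcctc
The motif began at transcribed base 3 in STIM1, the calcium sensor of the endoplasmic reticulum, at base 11 in IDE, the insulin-degrading enzyme, and at base 12 in EP300, a histone acetyltransferase. It began at base 16 in LARP1, which binds mRNAs of the translation machinery, and at base 26 in CUL1, the scaffold of SCF ubiquitin ligases. CDV3 was the 1 gene of this group whose region carried the 5' UTR label.

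The label follows position, so the positions are given as a description. Where the transcript of the promoter label was also the nearest one (191 regions), centres ran from 993 bp upstream to 97 bp downstream of the start. LOC100130283, MID1IP1-AS1 and GALNT3 lay just inside the upstream end, at -993, -990 and -988 bp. AOC3, CYTH1 and PIK3R5 lay just outside it, at -1013, -1011 and -1008 bp, and were labelled exon, intron and intergenic. At the downstream end, UTP14C, SYDE2 and GRIA4 were inside at 94, 97 and 97 bp, and OGFR-AS1, RPL13AP20 and NARF outside at 123, 141 and 168 bp. For the other 177 promoter regions the annotation named a different transcript as the nearest, which can be of the same gene. Their centres ran from -976 to 945 bp around the start of that transcript.

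The promoter centres lay on both sides of the start. The median centre of promoter regions was at -162 bp from the nearest start, upstream of it (quartiles -475 and 84.5 bp), and 155 of 368 (42.1%) were within 250 bp of it. The 250 bp just upstream of the start held 104 centres and the 250 bp just downstream held 50. The label shapes this split. In the whole set, 249 regions were centred up to 1000 bp upstream of a start, and all were promoter or 5' UTR regions. Another 610 were centred up to 1000 bp downstream, and 173 of these (28.4%) were promoter or 5' UTR regions. The 5' UTR regions were centred downstream in 71 of 74, with a median of 535.5 bp (quartiles 260 and 843.5 bp).

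**Figure D1:**
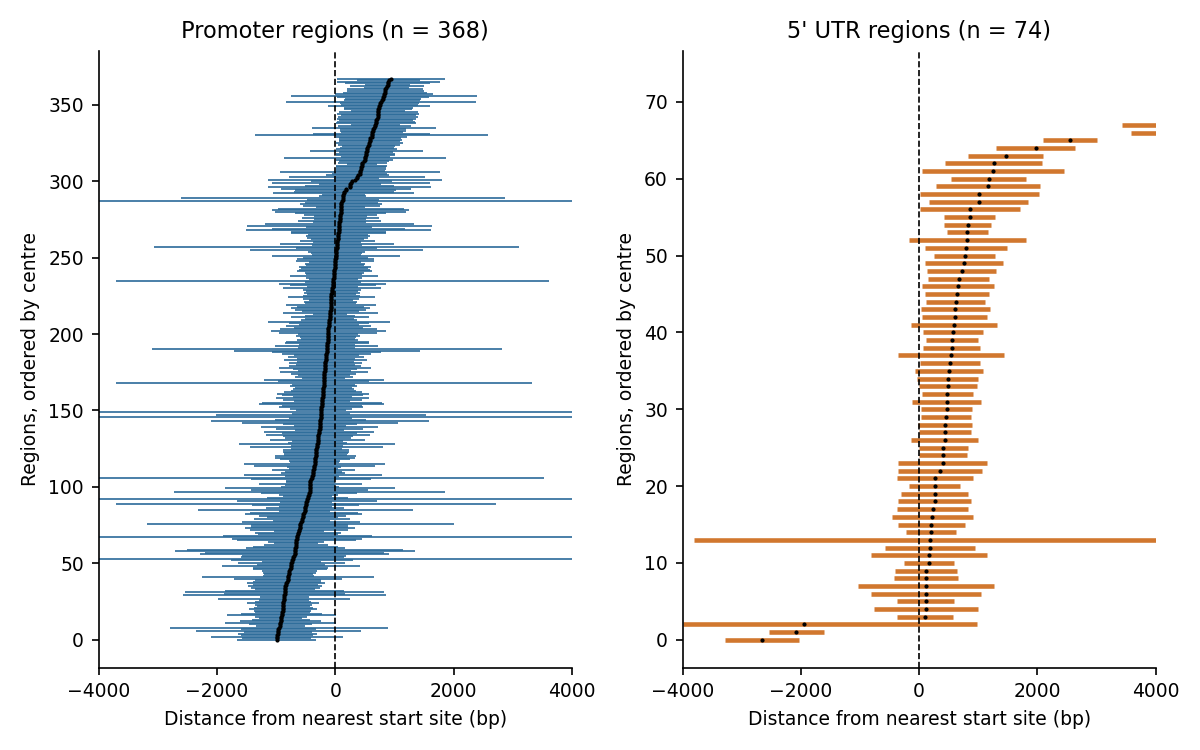
Extent of each promoter region (left, blue) and 5' UTR region (right, orange) relative to the nearest annotated start site in bp, 1 line per region ordered by its centre (black point), with upstream to the left of the dashed line. Lines are clipped at 4000 bp, and the 8 5' UTR regions centred farther than that have no point; promoter centres lie on both sides of the start and 5' UTR centres mostly downstream.

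Most of these regions held the start site itself. A region was counted as holding it when the distance of its centre was no more than the region's own half-width. This was so for 299 of 442 (67.6%, interval 63.1 to 72.0%), with 265 of 368 promoter regions (72.0%) and 34 of 74 5' UTR regions (45.9%). Position enters both this count and the label, so the 446 of 9458 other regions that held their nearest start (4.72%) are a description of what the label takes in.

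The bases of regions that held the start were split differently in the promoter and 5' UTR groups. In the 265 promoter regions the median reach was 860.5 bp upstream and 507.5 bp downstream, and in the 34 5' UTR regions it was 354.75 bp upstream and 920.5 bp downstream. The region at ZEB1, a zinc finger repressor of epithelial genes, reached 519.5 bp upstream and 507.5 bp downstream. That at SMAD1, a carrier of BMP signals to the nucleus, reached 617.5 and 603.5 bp, and that at TENM4, a teneurin of neuronal wiring, 444.5 and 434.5 bp. The centres of these 3 lay 5 to 7 bp from the start, so both sides were nearly equal. The region at AJUBA, a LIM-domain scaffold, carried the 5' UTR label and reached 1030.5 bp upstream and 1266.5 bp downstream. Of all 299, 99 (33.1%) had most of their bases downstream of the start. The label limits where a centre can lie, so these splits describe what each label takes in.

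**Figure D2:**
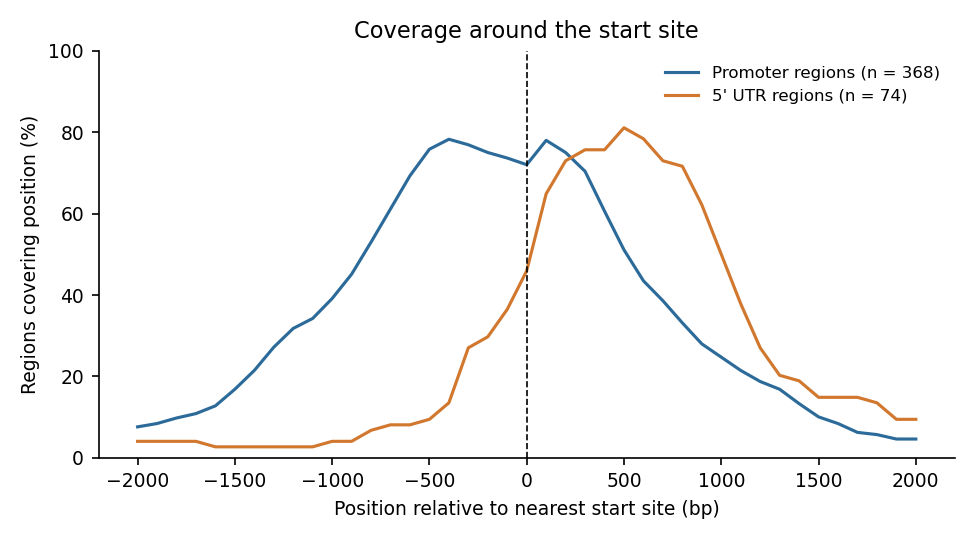
Share of promoter regions (blue) and 5' UTR regions (orange) that covered each position around the nearest annotated start site, in percent against distance in bp. Promoter coverage stood at 78.3% at 400 bp upstream and 78.0% at 100 bp downstream with 72.0% at the start, while 5' UTR coverage was highest at 500 bp downstream, 81.1%.

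The regions at starts were only part of those in the set. Of 745 regions of any label that held their nearest start, 299 (40.1%) were promoter or 5' UTR regions and 267 (35.8%) were labelled intron. The other regions that held a start were mostly wide: 356 of 446 exceeded 2 kb (79.8%), against 74 of 299 promoter and 5' UTR regions (24.7%). This follows in part from the label, which takes all 249 regions centred up to 1000 bp upstream of a start and leaves those centred farther off, which must be wide to reach it.

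The promoter and 5' UTR regions were narrower than the rest of the set. Their median width was 1229.5 bp (quartiles 969 and 1679.5 bp), against 1554.5 bp for the 9458 other regions, 2102 bp for introns, 1350 bp for coding exons and 1221 bp for 3' UTRs. Over 2 kb were 76 of 442 (17.2%) against 3607 of 9458 (38.1%), a difference of -20.9 points (-24.3 to -17.02). Against 3' UTR regions, of which 15.0% were over 2 kb, the difference was 2.16 points, with an interval from -2.13 to 6.68. Promoter regions passed 2 kb more often than 5' UTR regions, 19.3% against 6.76%, a difference of 12.5 points (3.63 to 18.3).

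A few promoter regions were far wider than a promoter. The widest was at FYN, a SRC-family kinase, with 78583 bp at chr6:111720519-111799101. RAET1L, a ligand gene of the NKG2D receptor, followed with 65338 bp, then ANKRD35 with 49406 bp, TES with 24307 bp and CFAP20DC-AS1 with 12444 bp. The centre of a region of this size lying near a start says little of where in it the m6A was. The narrowest promoter region, 493 bp at chr2:159615850-159616342, lay 452 bp downstream of a start of BAZ2B, a bromodomain gene that held 8 other regions. It was followed by DIPK2A (565 bp), BRF1 (727 bp), DPY19L2P3 (730 bp) and PRH1 (732 bp). BRF1 is a subunit of the initiation factor of RNA polymerase III. Among 5' UTR regions, PCDHGA8 (7987 bp) and PPHLN1 (5822 bp) were the widest, then TLNRD1, AJUBA and EEPD1, and TMEM18 (680 bp) and HCFC1 (804 bp), a host cell factor that binds chromatin regulators, were the narrowest. DCLRE1A, RBBP6 and TULP4 came next, at 807, 823 and 841 bp.

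Promoter centres often lay inside a gene other than the one in the label. Among the 368, 130 centres (35.3%) were within the body of the label gene, 136 (37.0%) within another protein-coding gene, 51 (13.9%) within a non-coding gene only and 51 (13.9%) in no gene of the RefSeq table. For labels of protein-coding genes the centre was in the label gene in 123 of 270 (45.6%) and in another protein-coding gene in 65 (24.1%). For labels of long non-coding RNAs (lncRNAs) it was in another protein-coding gene in 49 of 68 (72.1%, 59.9 to 82.3%), and for miRNAs in 13 of 14. The label of a lncRNA or miRNA here therefore stands mostly on a position that a protein-coding gene also occupies.

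**Figure D3:**
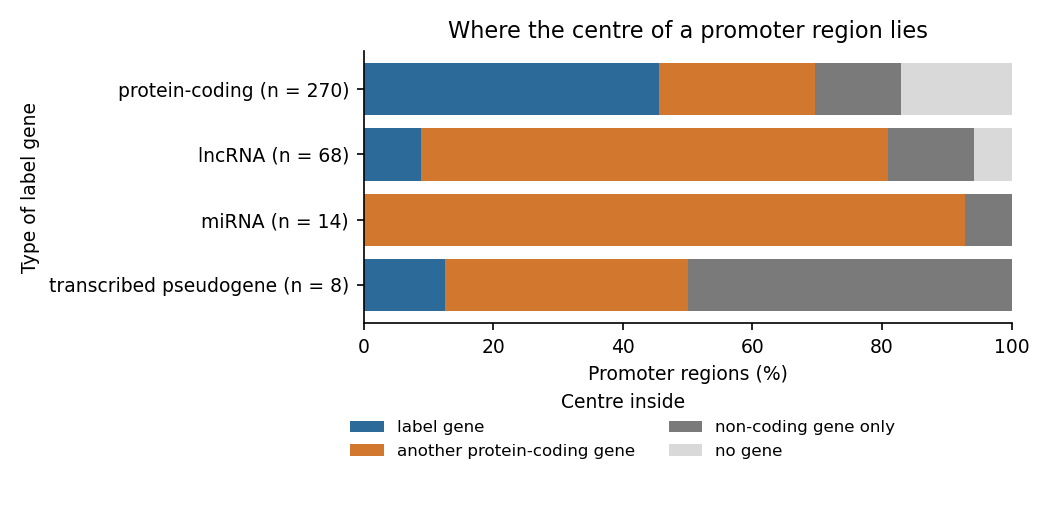
Where the centre of a promoter region lay, as a share of regions in percent, for each type of gene named in the label. Blue is the body of the label gene, orange another protein-coding gene, dark grey a non-coding gene only and light grey no gene; orange is the widest part for lncRNA (49 of 68) and miRNA (13 of 14) labels.

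In a part of these cases the gene around the centre was the head-to-head neighbour. Of the 136 host cases, the host ran on the strand opposite to the label gene in 73, on the same strand in 14 and on both in 4. In the other 45 the strands could not be compared, as the label gene or the host had none listed. In 49 of the 73 opposite hosts (67.1%, 55.1 to 77.7%), the centre lay within 1000 bp downstream of a start of the host. Over hosts of any orientation with a listed start this was so in 58 of 115 (50.4%, 41.0 to 59.9%). At SKA3, a spindle and kinetochore gene, the centre lay 688 bp inside the neighbouring MRPL57, a mitochondrial ribosomal protein gene, whose start was 106 bp from that of SKA3. SOX21-AS1 and SOX21, a transcription factor of neural progenitors, shared a region of 3129 bp at chr13:94710913-94714041, with its centre 68 bp downstream of the SOX21 start.

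A second start on the opposite strand was common near the promoter regions. It was counted when a start of another gene lay within 1000 bp of the nearest start, among regions whose start is in the RefSeq promoter table. This held for 145 of 356 promoter and 5' UTR regions (40.7%, 35.6 to 46.0%), against 1566 of 6869 other regions (22.8%), a difference of 17.9 points (12.9 to 23.2). Promoter regions had it in 132 of 296 (44.6%) and 5' UTR regions in 13 of 60 (21.7%). The promoter label reaches over the first part of a head-to-head neighbour, so the label itself takes in such places and this share is not independent of it. Among regions that held their nearest start, 91 of 239 promoter and 5' UTR regions had a second start (38.1%) against 73 of 304 other regions (24.0%), a difference of 14.1 points (6.24 to 21.8). With genes as units, 125 of 292 protein-coding genes nearest to one of these regions had a second start (42.8%) against 3984 of 15551 others (25.6%). The label enters both of these comparisons too, so they are not independent of it. For regions centred up to 1000 bp downstream of their nearest start, the shares were 82 of 149 (55.0%) and, for other regions, 68 of 331 (20.5%).

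The 145 pairs were of different kinds. In 119 the starts pointed away from each other and in 26 the genes overlapped at their starts; the second gene was protein-coding in 80 and a lncRNA in 65. The region held both starts in 56. MYO19, a mitochondrial myosin, and PIGW, an enzyme of GPI anchor synthesis, had starts 119 bp apart with the centre 13 bp from that of MYO19. XPC, a sensor of DNA damage, and LSM3, an RNA-binding subunit of the U6 snRNP, had starts 216 bp apart. AMD1, of polyamine synthesis, and CDK19, a Mediator kinase, were 852 bp apart, and EHMT1, a histone H3 lysine methyltransferase, and ARRDC1-AS1 110 bp. ZEB1 and ZEB1-AS1 were 678 bp apart, and EPB41L4A and its divergent transcript EPB41L4A-DT 306 bp. For TMEM80 and DEAF1 the distance was 417 bp and for ARHGAP11A-DT and ARHGAP11A-SCG5 730 bp. These 8 pairs are those whose centre was nearest to a start.

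**Figure D4:**
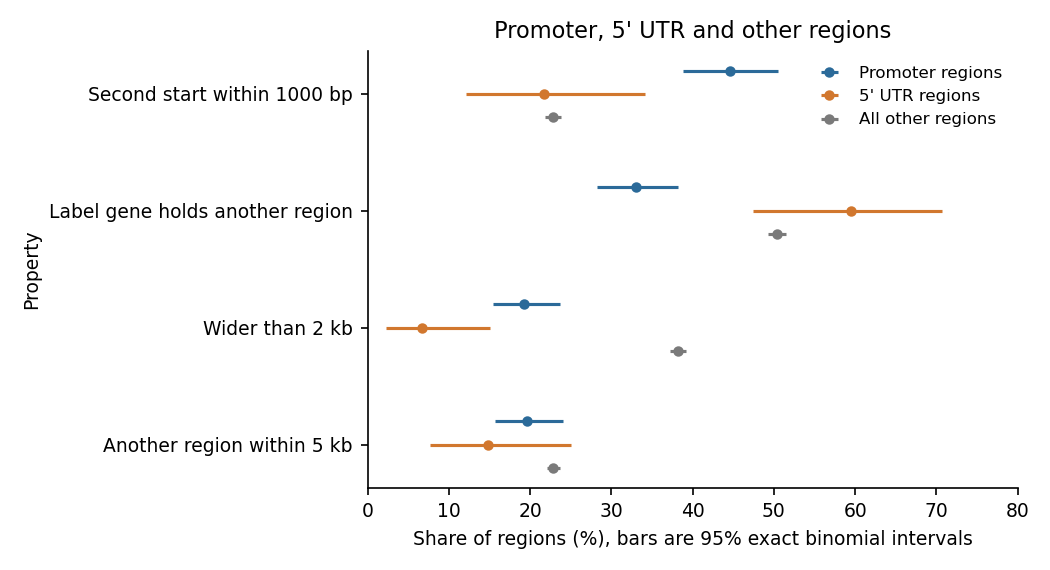
Share of promoter regions (blue), 5' UTR regions (orange) and all other regions (grey) with each property, in percent, with 95% exact binomial intervals. Promoter regions stand at 44.6% for a second start within 1000 bp, against 21.7% and 22.8%; 5' UTR regions stand at 59.5% for another region in the label gene, against 33.1% and 50.4%.

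The label genes of 5' UTR regions more often held further m6A regions than those of promoter regions. The label gene was not always the gene at the centre. The centre lay in another protein-coding gene for 136 of 368 promoter regions and 2 of 74 5' UTR regions, and the part of this was not tested. The label gene held another region for 44 of 74 5' UTR regions (59.5%, 47.4 to 70.7%) and for 120 of 363 promoter regions (33.1%), promoter minus 5' UTR being -26.4 points (-37.8 to -13.97). With exonic regions alone the shares were 35.1% and 18.2%, and the same difference -16.95 points (-28.9 to -6.16). For both groups together the exonic share was 21.1%, against 18.96% for the other regions, a difference of 2.09 points (-1.57 to 6.25). Regions of other labels in these genes numbered 226 in 158 genes, with 130 in introns, 56 in coding exons and 29 in 3' UTRs. Gene type differed between the groups: all 5' UTR labels were protein-coding, while 93 promoter labels were of other genes, and 9 of these held another region (9.68%). Among the 270 promoter regions with a protein-coding label the share was 41.1%, which is -18.3 points from that of 5' UTR regions (-30.3 to -5.50), and with exonic regions alone 23.3% (-11.8 points, -24.1 to -0.529). Longer genes can hold more regions and more abundant RNA is easier to detect; neither was tested.

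The 5' UTR regions were mostly in the first exon. Their centres were in exon 1 of the label transcript in 54 of 74 (73.0%), in exon 2 in 17 and in exon 3 in 3, and in 6 the transcript had 1 exon only. The farthest from a start lay in exon 2: GLCE, a heparan sulfate epimerase, at 36240 bp, KBTBD11 at 27186 bp, GPAT4, an acyltransferase of lipid synthesis, at 20337 bp, SYNDIG1, a synapse protein, at 18338 bp and SDCBP, the scaffold syntenin, at 7897 bp. For these 5 the region did not reach the start. At METTL4, a methyltransferase that acts on U2 snRNA, the centre was in exon 2 at 4102 bp. Centres at KAT6A and ICAM3 were upstream of the nearest start, which belonged to KAT6A-AS1 (-2661 bp) and RAVER1 (-2077 bp).

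Protein-coding genes made up most of the genes at these regions, but how they compared with the other regions turned on how the gene was named. The nearest start belonged to one for 342 of 440 (77.7%, 73.5 to 81.5%) against 77.1% of the other regions, a difference of 0.604 points (-3.60 to 4.34). By the label, 344 of 437 were protein-coding (78.7%) against 92.3% of the other regions, a difference of -13.6 points (-17.7 to -9.99). A further 68 were lncRNA (15.6% against 5.27%), 14 miRNA (3.20% against 0.186%), 8 transcribed pseudogenes, 2 snoRNA and 1 snRNA. The label and the nearest start named the same gene in 338 of 436. Coding exon and UTR labels are of protein-coding genes by their nature, so the label shares follow the kinds of label in each group.

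The background for gene groups was low. Of 20056 protein-coding genes, 338 were nearest to a promoter or 5' UTR region (1.69%), of 18330 lncRNA genes 75 (0.409%), and of 1913 miRNA genes 13 (0.68%). The counts of the lists below are read against these shares and no list was tested. Of 22 lists, 12 had no gene whose start was nearest to a promoter or 5' UTR region. Among these 12, the histone lysine methylation list had 1 gene by label alone.

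The list with most genes was of signalling. The TGF-beta, NODAL and BMP list had 3 of 25 genes (12%, 2.55 to 31.2%), beside a background of 1.69%. It is the highest of 22 lists, and the interval does not allow for that choice. These were SMAD1 (1221 bp, centre at -7 bp), SMAD7, an inhibitory SMAD (2107 bp, -228 bp), and BMPR2, the type II BMP receptor, whose 957 bp region carried the 5' UTR label with its centre at 551 bp. The receptors ACVR1, ACVR1B and ACVR2A had none. The FGF and MAPK list had 1 of 27, SPRY1, a feedback inhibitor (987 bp, -53 bp), and the WNT list 1 of 27, the receptor FZD8 (915 bp), at a region labelled with MIR4683; its centre was at -359 bp from the start the deposited annotation uses and 503 bp inside FZD8 from the start in the RefSeq table. BRAF, DUSP4 and DUSP6 of the first and APC, AXIN1 and AXIN2 of the second had none.

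Chromatin and RNA genes had 1 or 2 in a list. The Polycomb list, repressors of developmental genes, had 2 of 30: RBBP7, a histone-binding subunit, in its 5' UTR (1046 bp, 123 bp), and AEBP2, a PRC2 cofactor (901 bp, -505 bp). SMARCE1, a BAF subunit, was 1 of 26 remodelers (-987 bp), and among 42 histone lysine methylation genes none was nearest, EHMT1 being named by label alone. Of the m6A machinery, 1 of 25 had a region: YTHDF3, a cytoplasmic m6A reader, with 1562 bp around its start (centre at -176 bp). METTL4 was 1 of 15 genes of cap methylation and cap binding, U2AF2, which binds the polypyrimidine tract, 1 of 26 splicing factors, and PFKP 1 of 18 glycolysis genes. ALKBH5, CBLL1 and FTO of the m6A machinery had none.

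Pluripotency and germ cell genes had few or no such regions, as did most lists of this size at a background of 1.69%. None of 28 core and primed pluripotency genes and none of 19 naive pluripotency genes was nearest to such a region; a count of 0 of 28 allows up to 12.3%. The germ cell specification list had 1 of 20, DND1, an RNA-binding protein of germ cells, whose region was centred at -881 bp from its start, in another protein-coding gene. The genes named in the series title had none: the closest region to OTX2 was centred 4287 bp downstream of its start, in a non-coding exon, that of TFAP2C at -3720 bp, between genes, and IGF2BP1 was nearest to no region. The mesendoderm, neural, amnion and trophoblast, and fibroblast markers also had none, nor did the lists for cell cycle, immediate early genes, heat shock, the RNA exosome or pausing. Absence from the set does not show that a transcript lacked m6A.

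Families were as sparse. ZNF zinc finger genes had 11 of 517 (2.13%, 1.07 to 3.78%), near the background; the closest were ZNF747 (74 bp), ZNF701 (101 bp), ZNF302 (145 bp), ZNF687 (-159 bp) and ZNF749 (-196 bp). The protocadherins had PCDHGA8 and PCDHGA6 of 66, in a cluster whose genes share their last exons and whose bodies overlap. MRPL57 and MRPL2 were 2 of 77 mitochondrial ribosomal protein genes, H3C14 1 of 73 replication-dependent histones, SOX21 1 of 19 SOX and FOXJ2 1 of 52 FOX genes. Cytosolic ribosomal protein genes (0 of 82), olfactory receptors (0 of 390), keratins (0 of 55) and HOX genes (0 of 39) had none. lncRNAs named as antisense or divergent to a gene had 46 of 2725 (1.69%, 1.24 to 2.25%), against 0.409% for all lncRNAs; they are by name those that start beside or across another gene.

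Few genes had more than 1 region. NFIB, a nuclear factor of lung and brain development, had 2 promoter regions, centred at 46 and -312 bp from their nearest starts on chromosome 9. ZSCAN12 had 2 on chromosome 6 at -152 and -84 bp, and ARHGEF34P, a pseudogene, 2 on chromosome 7 at -77 and -210 bp. The ARHGEF34P regions, which begin at 144285321 and 144362741, carried the same label transcript. That transcript was thus placed at more than 1 site, and reads from such copies may be placed at either. KCNMB3, a subunit of BK potassium channels, had 1 in its 5' UTR (868 bp) and 1 at a promoter (2255 bp). DDX31 was nearest to 2, 1 of them labelled with GTF3C4.

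The non-coding labels stood largely on other genes. CEBPB-AS1 (centre at -24 bp) lay in CEBPB and GABPB1-IT1 (-49 bp) in GABPB1. SNORD82, a C/D box snoRNA, was labelled at a region whose centre was in NCL, its host, and SNORD1C at one in SNHG16. RNU2-1, a U2 snRNA gene of a repeated cluster, had a region of 874 bp centred at -792 bp in no gene. Reads from repeated copies may be placed at any of them, and the sources used here do not say how such reads were treated.

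The miRNA labels are shown with their mature sequences, since 10 of 12 hairpins found in the RefSeq table lay inside the region. Seeds (bases 2 to 8) are in capitals, sequences are 5′ to 3′ from RefSeq (GRCh38.p14), and no seed was shared among the 17 mature sequences of these genes.
hsa-miR-6764-5p, in YY1: uCCCAGGGucuggucagaguug
hsa-miR-922, in RUBCN: gCAGCAGAgaauaggacuacguc
hsa-miR-4737, in HEATR6: aUGCGAGGaugcugacagug
hsa-miR-7106-5p, in DDX54: uGGGAGGAggggaucuuggg
hsa-miR-8075, in CUL4A: uGCUGAUGgcagaugucgggucug
hsa-miR-4687-3p, in STIM1: uGGCUGUUggagggggcaggc
hsa-miR-941, in DNAJC5: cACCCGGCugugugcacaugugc
For MIR6764 the region (1457 bp, chr14:100276587-100278043) was centred at -42 bp from the annotated start of the miRNA gene, and 38171 bp from a start of YY1, a zinc finger transcription factor. MIR922 lay in RUBCN, an inhibitor of autophagy, 62252 bp from its start. For most of these labels a start is the end of a hairpin cut from a longer host RNA, not a place where transcription begins. In 3 cases the nearest start was that of a protein-coding gene: MIR4687 at STIM1 (103 bp), MIR320A at POLR3D (728 bp) and MIR4683 at FZD8. The hairpins of MIR4683 and MIR671 lay outside their regions, which were in FZD8 and CHPF2.

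The sequence around starts was more CpG-rich where one of these regions held the start. Windows of 250 bases before to 50 after each start were taken for 22199 starts of protein-coding genes, of which 276, in 227 genes, lay in a promoter or 5' UTR region. The median GC content was 67.7% in these, 62.7% in 428 starts held by another region only and 62.3% in the 21923 not held by a promoter or 5' UTR region. CpG-rich windows (GC of at least 50% and a CpG ratio, observed over that given by the C and G content, of at least 0.6) were 217 of 276 (78.6%, 73.3 to 83.3%) against 255 of 428 (59.6%), a difference of 19.04 points (12.1 to 25.5), and 59.75% of the 21923. The motif TATAA on the transcript strand was in 16 of 276 (5.80%) against 51 of 428 (11.9%), a difference of -6.12 points (-10.2 to -1.75), and 12.5% of the 21923. These are the letters of CpG island promoters, which are typical of broadly expressed genes; RNA levels were not in the files and their part was not tested. Several starts of a gene can lie in 1 region and share bases.

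The m6A core motif was in most windows of each group. Of the 300 bases of a window, 250 lie before the start and are not in the transcript that begins there. GGAC was on the transcript strand of 201 of 276 windows (72.8%, 67.2 to 78.0%), of 74.3% of starts held by another region and of 69.2% of those not held by a promoter or 5' UTR region, with a difference of 3.62 points from the last (-1.95 to 8.56). In the first 50 transcribed bases it was in 70 of 276 (25.4%) against 19.7%, a difference of 5.66 points (0.861 to 11.1), and in 25% of starts held by another region. Median GC content of the windows was 67.7%, against 62.3% where not held and 62.7% where held by another region. The part of GC content in these matches was not tested. DRACH, a wider motif (A, G or T, then A or G, then AC, then A, C or T), differed less in the first 50 bases. It was there in 130 of 276 (47.1%) against 44.8%, a difference of 2.31 points (-3.53 to 8.24), and in 52.1% of starts held by another region. Over the whole window DRACH was in 94.6% against 96.4%, and in 98.1% of starts held by another region. The first transcribed base by annotation was A in 128 of 276 (46.4%) against 50.2%, a difference of -3.81 points (-9.64 to 2.12). The first base is the one that can carry m6Am, but the base at which transcription began in these cells was not measured.

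**Figure D5:**
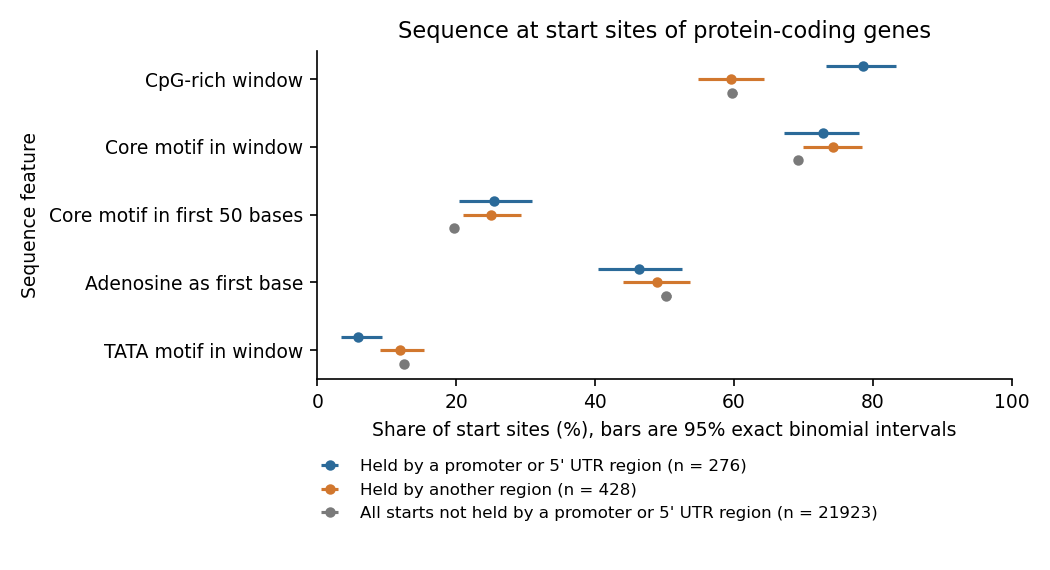
Share of start sites of protein-coding genes with each sequence feature, in percent, with 95% exact binomial intervals, for starts held by a promoter or 5' UTR region (blue), by another region only (orange) and all starts not held by a promoter or 5' UTR region (grey, which takes in the orange ones). CpG-rich windows stand at 78.6%, 59.6% and 59.75%, and the intervals of the core motif in the window overlap.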

How the data were processed

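Per the labels, total RNA of wild-type H1 cells gave 2 input and 2 m6A pull-down libraries, grouped by their titles; the labels do not state that replicates were separate cultures. The submitters' processing notes name HOMER, bedtools 2.30.0, MACS2 2.2.7.1, SAMtools 1.6, HISAT2 2.2.1, Trim Galore 0.6.7 and the build hg38. The sources used here give neither settings nor what was intersected. The authors deposited 9900 region positions and a HOMER annotation of the same 9900, with distances in base pairs. Depth is unknown.

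Label transcripts and nearest starts were matched to RefSeq genes of GRCh38.p14 (437 and 440 of 442); second starts and sequences needed the promoter table, which matched 356. Chromosome 8, where 20 regions lay, was not used for those. Counts used Python 3.11.15, numpy 2.4.6, pandas 2.3.3 and scipy 1.17.1, with exact (Clopper-Pearson) intervals for shares and Newcombe's for differences, tested on simulated data. No significance test was run. Motifs were GGAC, TATAA and DRACH, overlaps counted once per window.

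The regions and gene lists were chosen with earlier results of these data known. Named were, by rule, up to 5 genes with and 3 without a region per list or family (nearest centre first), the 8 regions of each kind nearest to a start, the 5 widest, narrowest and farthest, those at the label's edges, genes with 2 regions, the 8 nearest gene pairs, non-coding labels and the 3 title genes; a part of these is printed. SKA3, the printed motif examples and the miRNA examples were chosen from these tables after their values were seen.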

Additional observations from a re-analysis of the deposited data

How the results depend on the processing

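No paired analysis was possible because the deposited set holds no value per library; for the same reason no replicate could be left out, and with a score of 0 throughout no stricter threshold could be set. Of 40 alternatives, 22 stayed within the main 95% interval (a count of genes within 1.5 times). Regions up to 2 kb only gave 61.5% holding the start and a median width of 1114 bp. Promoter regions only gave 72.0% holding the start and 73.5% nearest to a protein-coding gene. 5' UTR regions only gave 45.9% holding the start, 98.6% protein-coding, 59.5% with another region in the gene, 21.7% with a second start, 66.7% of windows with GGAC, a median width of 1127.5 bp and 73 genes. Centres within 500 bp of the start gave 93.8% holding it and 198 genes. Any region that held a start gave 529 genes, against 338. Another region in an exon stood at 21.1%, a second start within 500 bp at 34.6%, GGAC on either strand at 91.7% and the wider DRACH motif at 94.6%. GGAC on either strand takes in the main count by construction. DRACH allows more letters before AC but leaves out GGAC followed by G, as in the printed CUL1 sequence. 3 alternatives were chosen after seeing the data: second starts only where the listed start matched the deposited one (39.9%), 1 start per gene for GGAC (73.1%), and promoter regions with a protein-coding label for another region in the gene (41.1%). The share with a CpG island at the centre could not be used: it was 0 of 442, where the detailed annotation repeated the promoter or UTR label in 440.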
